A study of Mus musculus with 2 samples.

Results

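The blood cell miRNAs are 7 miRNA genes known from red or white blood cells, read here in whole embryonic mouse limb. They were taken by name: Mir144 and Mir451a as the red cell genes, and Mir223, Mir155, Mir150, Mir146 and Mir142b as the white cell genes, together 7 of the 1973 miRNA genes listed in the files. All 7 were found by their Ensembl identifiers. The data come from short RNA of limbs at embryonic day 11.5, in 1 group of 2 libraries, labelled biological replicates 1 and 2. The mice were of strain B6NCrl, healthy and untreated as far as the labels say, with both sexes pooled. Replicate 1 pooled limbs of 109 embryos and replicate 2 limbs of 88. Both replicates carry the same donor identifier, so the spread given here is that between these 2 libraries and may be partly technical.

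A microRNA (miRNA) is cut from a hairpin precursor and guides an Argonaute protein to messenger RNAs that pair with its seed, the bases 2 to 8 from its 5′ end. Mir144 and Mir451a are made as a pair in maturing red cells, and the Mir451a hairpin is known for being cut by Argonaute 2 without Dicer. Mir223 marks myeloid cells, Mir142 is made in blood cells of nearly every lineage, Mir155 is induced in activated macrophages and lymphocytes, Mir146 is induced by NF-kB and represses that pathway, and Mir150 belongs to mature lymphocytes. In the mouse embryo of this age, circulating red cells come largely from the yolk sac, and macrophages are the main white cells within tissues.

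The mature sequences below, from RefSeq on GRCm38.p6 (the mm10 assembly), come from 6 of the 7 loci, without Mir150, and show that the sequences printed for those loci have no seed in common; capitals mark the seed.
mmu-miR-451a: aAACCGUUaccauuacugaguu
mmu-miR-144-3p: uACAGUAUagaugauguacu
mmu-miR-142a-3p: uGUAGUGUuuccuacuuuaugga
mmu-miR-142a-5p: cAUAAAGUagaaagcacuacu
mmu-miR-155-5p: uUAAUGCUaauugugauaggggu
mmu-miR-223-3p: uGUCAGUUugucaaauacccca
mmu-miR-146a-5p: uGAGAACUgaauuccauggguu
mmu-miR-146b-5p: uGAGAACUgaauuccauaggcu
The last line belongs to Mir146b, which is not one of the 7 genes and is shown because it shares the seed of miR-146a-5p. In all, RefSeq gave 12 mature sequences for the 7 loci, taking those of Mir142 in place of miR-142b and miR-150-3p alone for Mir150, with 12 different seeds. Among the 1738 mature sequences of that table, miR-146b-5p was the 1 outside these loci that carried one of them. It differs from miR-146a-5p by G18A and U21C, counted from the 5′ end with the base of miR-146a-5p first. Mir146b held 2 sense counts in replicate 1 and 0 in replicate 2, where 0 allows up to 0.867 CPM.

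The hairpins of the red cell pair and of Mir142 show where those mature sequences lie; capitals mark the mature arms, from RefSeq on GRCm38.p6.
Mir451a: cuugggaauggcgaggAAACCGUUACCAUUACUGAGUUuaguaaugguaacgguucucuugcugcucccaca
Mir144: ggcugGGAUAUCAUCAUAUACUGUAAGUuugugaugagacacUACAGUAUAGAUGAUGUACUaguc
Mir142: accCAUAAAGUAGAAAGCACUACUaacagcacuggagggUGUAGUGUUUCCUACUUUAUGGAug
Mir144 lists a mature sequence on each arm, whereas miR-451a runs from base 17 to base 38 of its hairpin. In the fold that RNAfold predicted, the terminal loop of Mir451a spans bases 35 to 38, and all 4 loop bases are part of miR-451a. Of the other 10 mature sequences that could be placed on a hairpin, 0 had a base in the predicted loop. The counts are per hairpin, so reads of the arms cannot be told apart.

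On chromosome 11 lie 4 of the 7 genes, at 3 separate sites. Mir144 (ENSMUSG00000065401.1, chr11:78073005-78073070, plus strand) and Mir451a (ENSMUSG00000070065.1, chr11:78073170-78073241, plus strand) are separated by 99 bases. Mir146 (ENSMUSG00000065601.1) lies at chr11:43374397-43374461 on the minus strand, with no other annotated gene over it. Mir142b (ENSMUSG00000065420.2) lies at chr11:87756841-87756955 on the minus strand, and Mir142 at chr11:87756864-87756927 on the plus strand, inside an intron of its host transcript Mir142hg. Mir223 (ENSMUSG00000076066.1) lies at chrX:96242817-96242926, in an exon of the noncoding gene F630028O10Rik. Mir155 (ENSMUSG00000065397.1) lies at chr16:84714140-84714204, in an exon of its host transcript Mir155hg. Mir150 (ENSMUSG00000065495.1) lies at chr7:45121757-45121821, with no other annotated gene over it.

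The Mir142b entry was read by its opposite strand. All 64 bases of the Mir142 hairpin are contained in the reverse complement of the Mir142b hairpin, and the 20 bases of miR-142b are complementary to miR-142a-3p. The files list Mir142b and not Mir142. The strand of Mir142b itself held 0 counts in both libraries, which allows up to 1.02 CPM in replicate 1 and 0.867 CPM in replicate 2. The other strand held 1855 and 1978 counts, and these are the counts given for Mir142 from here on. Mir451a has a like partner: its 72 bases are the full reverse complement of Mir451b, which the files do not list, and there the opposite strand held 0 counts in both libraries.

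Levels are given as CPM, that is, counts scaled to a library total of 1000000 sense counts. The libraries held 2953085 sense counts in replicate 1 and 3459176 in replicate 2. The Mir142 reads were scaled by the same totals, although these totals do not include them. Intervals beside levels and shares are Wilson 95% intervals; they hold counting error alone, since copies made by PCR count as separate reads. In bulk tissue, fewer cells of a type and less RNA per cell cannot be told apart.

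The red cell pair was carried by Mir451a. Mir451a had 976 counts in replicate 1 and 1559 in replicate 2, or 331 and 451 CPM, with intervals of 310.4 to 352 and 429 to 474 CPM. Mir144 had 108 and 106 counts, or 36.6 and 30.6 CPM, with intervals of 30.3 to 44.2 and 25.3 to 37.1 CPM. The libraries lay apart for Mir451a, with the higher level in replicate 2, and overlapped for Mir144. Mir451a thus made up 90.04% of the red cell counts in replicate 1 and 93.6% in replicate 2.

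The neighbours Mir451a and Mir144 differed in level in each library. Within a library, Mir451a stood 9.04-fold above Mir144 in replicate 1 and 14.7-fold above it in replicate 2. On the log2 scale that ratio was 3.53 ± 0.50 (SD, n = 2), with counting errors of 0.15 and 0.14. Their 95% counting intervals, 2.89 to 3.46 in replicate 1 and 3.59 to 4.16 in replicate 2, did not overlap. The fold rests on the 108 and 106 counts of Mir144.

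**Figure D1:**
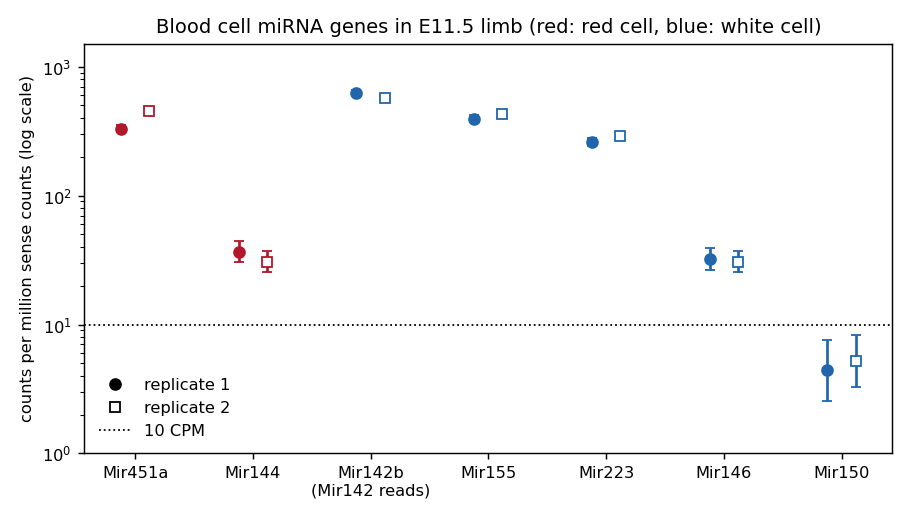
Level of each gene in CPM on a log axis, red cell genes on the left and white cell genes on the right, as a filled circle for replicate 1 and an open square for replicate 2, with Wilson 95% intervals. Mir451a, Mir142 (from the opposite strand of Mir142b), Mir155 and Mir223 lie between 259 and 628 CPM, Mir144 and Mir146 between 30.6 and 36.6 CPM, and Mir150 below the dotted line at 10 CPM.

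Among the white cell genes, Mir142 was the most abundant. Its 1855 and 1978 counts correspond to 628 CPM in replicate 1 and 572 CPM in replicate 2, with intervals of 600.2 to 657 and 547 to 598 CPM, which did not overlap. Of the 5 it is the gene made in the widest range of blood cells. It held 47.6% of the white cell counts in replicate 1 and 43.1% in replicate 2. Without it, the white cell genes held 0.0692% of sense counts in replicate 1 and 0.0755% in replicate 2, still more than the red cell pair in each library.

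Mir155 and Mir223 followed. Mir155 had 1170 and 1490 counts, or 396 and 431 CPM, with intervals of 374 to 420 and 409 to 453 CPM. Mir223 had 766 and 999 counts, or 259 and 289 CPM, with intervals of 242 to 278 and 271 to 307 CPM. For both genes the intervals of the libraries overlapped, and the ratio of Mir155 to Mir223 was nearly the same in each, 1.53-fold and 1.49-fold. On the log2 scale it was 0.59 ± 0.02 (SD, n = 2), a spread below the counting errors of 0.07 and 0.06. The ratio of Mir142 to Mir223 was 2.42-fold in replicate 1 and 1.98-fold in replicate 2, or 1.13 ± 0.21 on the log2 scale, with counting errors of 0.06 in each library.

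Mir146 and Mir150 were low. Mir146 had 95 and 106 counts, or 32.2 and 30.6 CPM, with intervals of 26.3 to 39.3 and 25.3 to 37.1 CPM, and its libraries overlapped. Mir150, the lymphocyte gene, had 13 and 18 counts, or 4.40 and 5.20 CPM, with intervals of 2.57 to 7.53 and 3.29 to 8.23 CPM. Its values lie above the limit that a count of 0 allows and below 10 CPM in both libraries. Within the white cell counts, Mir146 held 2.37% ± 0.09 and Mir150 0.363% ± 0.041 (SD, n = 2).

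With detection set at 10 CPM in each library, 6 of the 7 genes were detected, all but Mir150. Of all listed genes 15% did so by sense counts. At 100 CPM in both libraries 4 of the 7 remained, namely Mir142, Mir155, Mir451a and Mir223, where 9.88% of listed genes reached that level by sense counts.

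The red cell genes together held fewer counts than the white cell genes in both libraries. The red cell sum was 1084 counts in replicate 1 and 1665 in replicate 2, or 0.0367% and 0.0481% of sense counts, with intervals of 0.0346 to 0.0390% and 0.0459 to 0.0505%. The white cell sum was 3899 and 4591 counts, or 0.132% and 0.133% when set against the sense total, with intervals of 0.128 to 0.136% and 0.129 to 0.137%. The red cell share differed between the libraries by more than counting error, while the intervals of the white cell value overlapped. Without Mir142 the white cell intervals were 0.0663 to 0.0723% and 0.0727 to 0.0785%, and did not overlap. Within the white cell sum, Mir142 had its higher level in replicate 1, and Mir155 and Mir223 had theirs in replicate 2. The overlap thus holds for the sum and not for its parts. The sense total does not hold the opposite-strand reads of Mir142, so values that include them are counts relative to that total and not shares of it. The means were 0.0424% ± 0.0081 for the red cell genes and 0.1324% ± 0.0005 for the white cell genes (SD, n = 2). Together the counts of the 7 genes came to 0.169% of the sense total in replicate 1 and 0.181% in replicate 2, on the same terms.

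Taken as a ratio within a library, the red cell sum was 0.278 of the white cell sum in replicate 1 and 0.363 in replicate 2. The log2 ratio of red over white was −1.66 ± 0.27 (SD, n = 2), with counting errors of 0.05 and 0.04. Both libraries lay below 0, but an exact sign-flip test of 2 libraries cannot go below p = 0.5, so none was run. The ratio compares 2 hairpins with 5, so its size depends on which genes are summed. It is a ratio of counts and not of cells. Without Mir142 it was −0.78, and without Mir451a it was −5.31. All 7 ratios with 1 gene left out stayed below 0. Leaving out a red cell gene could only lower the ratio, so its sign was fixed there. Mir146 and Mir150 held too small a part of the white cell counts to move the ratio far. The ratio was −1.11 without Mir155 and −1.32 without Mir223. Between the most abundant gene of each kind, Mir451a over Mir142, the log2 ratio was −0.93 in replicate 1 and −0.34 in replicate 2, below 0 in both but with a wide spread (−0.63 ± 0.41, SD, n = 2).

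**Figure D2:**
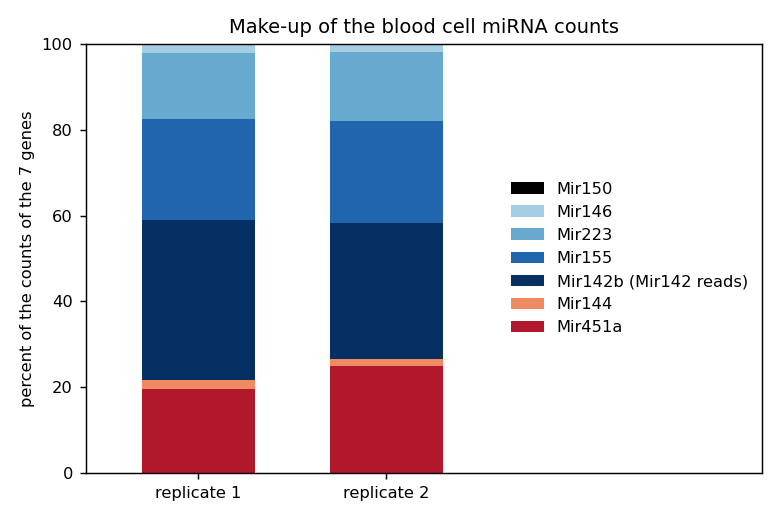
Share of each gene in the summed counts of the 7 genes, as stacked bars for replicates 1 and 2, red cell genes at the bottom and white cell genes above. Mir451a takes 19.6% in replicate 1 and 24.9% in replicate 2, Mir142 takes 37.2% and 31.6%, and the black band of Mir150 is too thin to see at 0.261% and 0.288%.

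Single red cell and white cell genes did not separate by level. In order of mean level they were Mir142 at 600 ± 40 CPM, Mir155 at 413 ± 24, Mir451a at 391 ± 85, Mir223 at 274 ± 21, Mir144 at 33.6 ± 4.2, Mir146 at 31.4 ± 1.1 and Mir150 at 4.80 ± 0.57 CPM (SD, n = 2). Mir451a and its neighbour Mir155 changed places between the libraries. The log2 ratio of Mir451a over Mir155 was −0.26 in replicate 1 and 0.07 in replicate 2, and its mean of −0.10 ± 0.23 (SD, n = 2) was smaller than its spread. Mir144 and Mir146 could not be ordered either, at a log2 ratio of 0.09 ± 0.13 (SD, n = 2) with counting errors of 0.20 in each library.

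The remaining neighbours differed beyond the spread between the libraries. Mir142 stood 0.54 ± 0.18 log2 units above Mir155, and Mir451a stood 0.50 ± 0.21 above Mir223. Between Mir223 and Mir144 lay a step of 3.03 ± 0.29 log2 units, and between Mir146 and Mir150 one of 2.71 ± 0.22 (SD, n = 2 for each). The counting error of the last ratio, 0.43 in replicate 1 and 0.37 in replicate 2, was larger than its SD. These ratios compare hairpins of different sequence, and how evenly ligation and PCR captured them was not tested.

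In the abundance order of all miRNA genes, the 4 higher genes lay near the middle of the detected range. The median detected gene had a mean of 262 CPM. Mir142 would rank 114 in replicate 1 and 117 in replicate 2, Mir155 ranked 130 and 129, Mir451a 136 and 127, and Mir223 148 and 145. Mir144 ranked 246 and 249, Mir146 248 and 249, and Mir150 341 and 331. Above Mir451a lay 44.1% of the 295 detected genes, and above Mir144 lay 83.1%.

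**Figure D3:**
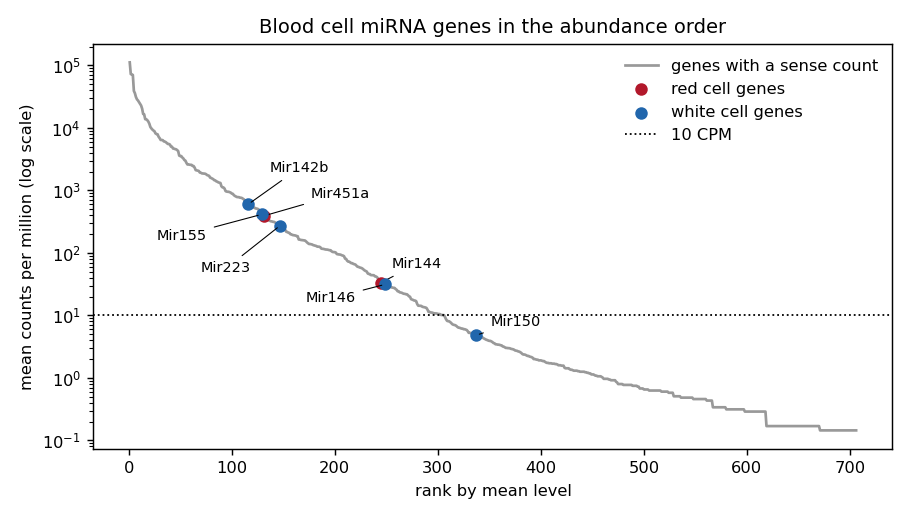
Mean CPM of both libraries on a log axis against rank, for the 706 genes with a sense count as a grey line and for the blood cell genes as red and blue points. The points form 3 steps, with Mir142b (the Mir142 reads), Mir155, Mir451a and Mir223 near the median detected level of 262 CPM, Mir144 and Mir146 near the lower end of the detected range, and Mir150 below 10 CPM.

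The gene closest in level to each of the 7 was found as the smallest distance of log2(CPM + 1) over both libraries, which is a likeness over 2 samples of 1 group. Mir125b-2 was closest to Mir155 at a distance of 0.03, with 390.4 and 438 CPM, and also to Mir451a, at a larger distance of 0.24. Mir467e was closest to Mir142 at 0.07 and Mir669l to Mir223 at 0.09. Mir449a was closest to Mir144 at 0.09, Mir199a-1 to Mir146 at 0.10, and Mir212 to Mir150 at 0.11. Mir451a thus had the farthest match of the 7.

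Each gene was then tested between the libraries by the exact binomial test, two-sided, on library sizes scaled by TMM, with Benjamini-Hochberg adjustment over all features tested at 0.05. The test compares the reads of these 2 libraries and no conditions. It called 20% of 440 features, 10% higher and 10% lower in replicate 1. Of the 7 blood cell genes it called 2, 1 in each direction. Mir451a was lower in replicate 1 by a log2 ratio of −0.44 (replicate 1 over replicate 2, counting error 0.06, adjusted p = 6.77e-13 by the exact binomial test). Mir142 was higher in replicate 1 at 0.14 (counting error 0.05, adjusted p = 0.0143 by the same exact test).

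The other 5 genes did not pass. Their log2 ratios were 0.26 for Mir144, −0.15 for Mir223, −0.12 for Mir155, −0.22 for Mir150 and 0.08 for Mir146, with adjusted p from 0.119 to 0.885 by the exact binomial test. The median of the 7 was −0.12, beside −0.01 over all 440 features. The red cell genes lay on both sides of 0, and so did the white cell genes, with 2 of 5 above it. For Mir150 and Mir146 the counting errors of 0.52 and 0.20 were larger than the ratios themselves, so differences of this size were not detectable at this depth. For Mir144 the counting error of 0.20 was close to its ratio.

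The difference at Mir451a was among the wider ones of the features at 100 CPM or more. Of 210 features with a mean of 100 CPM or more, 4, Mir451a among them, differed between the libraries by as much as Mir451a or more, and Mir451a was the 1 of these 4 that was lower in replicate 1. Its fold of 1.36 compares with a median fold of 1.06 over those features. They reach up to 111861 CPM, where counting error is smaller, and no set matched in level was made. The calls depend on how spread beyond counting error is treated. With an overdispersion taken from the median feature, which called 11.4% of features, Mir451a passed (adjusted p = 6.09e-05 in that overdispersed binomial fit) and Mir142 did not (adjusted p = 0.347). With the overdispersion taken from the mean, which called 3.18%, none of the 7 passed, 0 of 7.

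**Figure D4:**
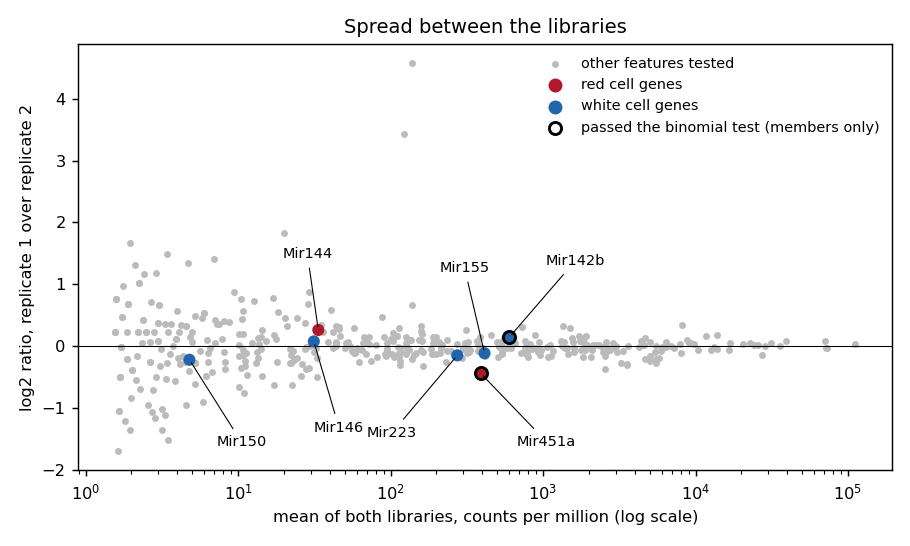
Log2 ratio of replicate 1 over replicate 2 against mean CPM on a log axis, for the 440 features tested, with red cell genes in red, white cell genes in blue, and a black ring on the 2 genes of the 7 that passed the exact binomial test. Mir451a lies at −0.44, below the band of features at its level, and Mir142b (the Mir142 reads) at 0.14.

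Further genes known from red cells gave little. Mir486, which overlaps the red cell ankyrin gene Ank1, had 38 counts in replicate 1 and 30 in replicate 2, or 12.9 and 8.67 CPM, and did not pass the test. Mir486 was below 10 CPM in replicate 2 and so was not called detected. Mir3107 is annotated over it on the other strand, and multimapping reads are in no gene's count. Whether reads of Mir486 were lost in this way was not tested, so its level may be too low. Mir451b and Mir486b were not listed under those names.

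Further white cell genes were at opposite extremes. Mir342, which overlaps Evl, had 12750 and 17251 counts, or 4318 and 4987 CPM. In bulk tissue these reads cannot be assigned to white cells, so they are not a measure of them. The same limit holds for the 7 blood cell genes. They are called red or white cell genes from what is known of them, and the cells their reads came from were not tested. The 7 blood cell genes together held less than Mir342 alone, at a log2 ratio of −1.41 ± 0.08 (SD, n = 2). Mir342 passed the test at a log2 ratio of −0.20 (adjusted p = 4.85e-32, exact binomial). Mir511, which overlaps the macrophage receptor gene Mrc1, had 1 and 3 counts, and Mir146b had 2 and 0, so neither was detected.

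MiRNAs that act in blood formation but are made in many tissues were far more abundant as a sum, though not gene by gene. Their mean levels ran from 22.2 CPM for Mir222 to 6384 CPM for Mir125a, so some lay below Mir223 at 274 CPM. Some have related copies, such as Mir181a-1 and Mir181a-2, and multimapping reads are in no gene's count. Whether reads were lost in this way was not tested, so levels of single genes may be too low. Of 16 such genes, 14 were listed and all 14 were detected, with a summed level of 19022 CPM in replicate 1 and 19400 CPM in replicate 2. The test called 3 of the 14, near the 20% called over all features: Mir21a was higher in replicate 1, and Mir181b-2 and Mir125b-2 were lower. Their log2 ratios were 0.08, −0.28 and −0.16. The median over the 14 was 0.02.

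Markers of other limb cells set the scale for the blood cell genes. Limb mesenchyme genes (Mir196b, Mir10b, Mir214, Mir199b and Mir140) were all 5 detected, summing to 164326 CPM in replicate 1 and 156831 CPM in replicate 2, the highest of the lists read. The endothelial gene Mir126a, which marks the vessels that carry blood, had 24254 and 24135 CPM. The white cell sum stood 18.4-fold below Mir126a in replicate 1 and 18.2-fold below it in replicate 2, a log2 ratio of −4.19 ± 0.01 (SD, n = 2). That small spread holds for the sum and not for each white cell gene. The red cell sum stood 66.1-fold and 50.1-fold below Mir126a, a log2 ratio of −5.85 ± 0.28.

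Other tissues were also read beside the red cell difference. Epithelial genes (Mir205, Mir203 and Mir200b) summed to 9021 CPM in replicate 1 and 10666 CPM in replicate 2, and all 3 passed the test lower in replicate 1, the direction of Mir451a. Their log2 ratios ran from −0.31 to −0.15. Of the limb mesenchyme genes 4 of 5 passed, all higher in replicate 1, the direction of Mir142, at log2 ratios from 0.08 to 0.29. Over all features the test called 20%, and 32.9% where 100 or more summed counts were required. Of the 440 features, 209 lay above 0 and 231 below, so a shared direction is common. Mir144 lay on the other side of 0 from Mir451a, and Mir155 and Mir223 lay on the other side from Mir142. With counts as high as those of Mir196b, 213129 and 236837, a log2 ratio of 0.08 passes. The hepatocyte gene Mir122, from the liver, an organ that makes blood in the fetus, had 21.7 and 14.7 CPM and did not pass. Muscle genes (Mir206 and Mir133b) summed to 560 and 576 CPM and neither passed. The 4 listed neural genes (Mir124a-1, Mir124a-2, Mir124a-3 and Mir9-2) had 0 sense counts in both libraries. These genes have related copies at other loci, though, and multimapping reads are in no gene's count. The part of tissue make-up in the differences of Mir451a and Mir142 was not tested.

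**Figure D5:**
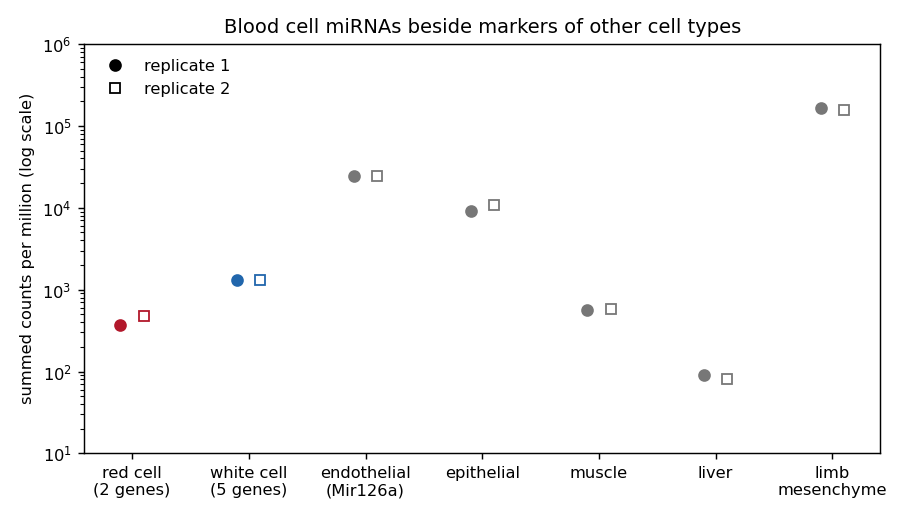
Summed CPM of the red cell and white cell genes beside marker genes of other cell types, on a log axis, as a filled circle for replicate 1 and an open square for replicate 2. The red cell sum lies at 367 and 481 CPM, below the muscle genes, and the white cell sum at 1320 and 1327 CPM, above them. Both lie above the liver genes, Mir122 and Mir192, whose sum is mostly Mir192. Both lie below the epithelial genes and the endothelial gene Mir126a near 24194 CPM, and far below the limb mesenchyme genes.

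Shared sequence was looked for over 6 of the 7 hairpins, without Mir150, and over Mir142. Mir146 was the 1 found to share a stretch of 20 bases with another annotated miRNA gene on its own strand. That gene was Mir146b, over 21 bases. Multimapping reads were 24.7% of all reads in replicate 1 and 23.4% in replicate 2 and are in no gene's count.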

How the data were processed

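Limb tissue at embryonic day 11.5 was profiled by miRNA sequencing in 2 libraries. The deposited values are raw read counts per miRNA gene, without normalization, against assembly mm10 and GENCODE annotation M4 per the notes deposited with the samples; no source used here names the aligner or the counter. Each file lists 3 count columns, for both strands and for each strand, for 1973 genes. The column with nearly all counts was read as sense; this rests on the values. Lines for unmapped, multimapping and unassigned reads stayed out of library sizes.

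Identifiers were matched to GENCODE M21 (also mm10) for symbols and coordinates, which succeeded for 1894 genes; the 79 unmatched genes held 4 sense counts. Sequences came from RefSeq, which held at least 1 mature sequence for all 7 genes and a hairpin for 6 of them. ViennaRNA 2.7.2 predicted folds.

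CPM and shares used all sense counts as the denominator, also for the opposite-strand reads of Mir142, which those totals do not include. The quasi-likelihood test of edgeR was not run because there is 1 group. An exact binomial test was run over all features with 10 or more summed counts, sense and opposite strand, with TMM sizes from edgeR 4.0.16 in R 4.3.3. Log2 ratios used a prior count of 0.5. Python 3.11.15, scipy 1.17.1 and numpy 2.4.6 did the rest. The test was checked on simulated counts that held counting error and planted changes alone. That check does not cover the wider spread of these libraries, whose overdispersion was 2.64 by the median and 18.8 by the mean.

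Named genes were the 7 members, the fixed marker lists and the gene nearest in level to each member. The members and lists were chosen with earlier results of these data known. Alternatives covered the scaling (with size factors of DESeq2 1.42.0), the filter, overdispersion, strand column, denominator, prior count, detection level, each member and each library.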

Additional observations from a re-analysis of the deposited data

Results flagged for a closer look

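Counts on the opposite strand, which the values above do not use for these genes, exceeded the 3 counts that a count of 0 allows at 2 blood cell loci. Mir150 had 4 opposite-strand counts in replicate 1 and 0 in replicate 2, beside 13 and 18 sense counts. Mir486 had 7 opposite-strand counts in replicate 1 and 7 in replicate 2, beside 38 and 30 sense counts; GENCODE M21 places Mir3107 there on the other strand. The origin of these reads was not tested.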

How the results depend on the processing

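The count of 2 genes called between the libraries, Mir451a and Mir142, was the same with total counts, with DESeq2 size factors, with no filter, with 100 or more summed counts and with both strands summed. With the overdispersed test it was 0 with the mean and 1, Mir451a, with the median. The log2 ratio of red over white, −1.66, kept its sign when any gene was left out, which leaving out a red cell gene could not change. It was −5.31 without Mir451a, −1.32 without Mir223, −1.11 without Mir155 and −0.78 without Mir142. Of all reads in the files, the red cell genes held 0.0194% and the white cell genes 0.0602%. With both strands summed for every gene as the denominator, the white cell share was 0.129%. In single libraries the log2 ratio ranged from −1.85 to −1.46, the red cell share from 0.0367% to 0.0481% and the white cell counts from 0.132% to 0.133% of the sense total. Detected genes numbered 7 at 1 CPM and 4 at 100 CPM, and 6 in each library alone and with all reads as the denominator. Of 55 alternative values of the members' log2 ratios, 51 kept direction and side of the threshold and 3 lost the call, all with the overdispersed test. The filter and overdispersed settings reuse the same log2 ratio, so direction could not change there and only the call could. Summing both strands could change the ratio of Mir150 alone, the member with counts on its other strand. Mir150 reversed, at 0.15 with both strands summed, through its 4 opposite-strand counts. No paired analysis was possible because the series holds 1 group. Depth limits Mir150 most.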
